A study of Homo sapiens with 12 samples.

Results

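Untreated cells of OCI-LY3 and SU-DHL6, a pair of established human diffuse large B-cell lymphoma (DLBCL) lines, were compared across all genes at baseline. The comparison used 6 of the 12 libraries of the study, 3 of untreated OCI-LY3 and 3 of untreated SU-DHL6, and was chosen by line and treatment, with no measured value involved. Of 58302 genes in the deposited count table, 16474 had enough counts to be tested. The study was designed around selinexor, an inhibitor of the nuclear export protein XPO1, and the other 6 libraries came from selinexor-treated cells of both lines.

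The labels give OCI-LY3 as activated B-cell type (ABC) and SU-DHL6 as germinal centre B-cell type (GCB), both with wild-type genotype. Both lines were grown in RPMI-1640 with 1% penicillin-streptomycin under 5% CO2. The culture description names the lines as SU-DHL6 and OCI-LY3 and the serum as 10% and 20%, in that order, so serum and line cannot be told apart if the order holds. Untreated cells were kept without selinexor for the same durations, 24 and 48 hours, and the labels tie neither time to a library. For the treated libraries 300 and 100 nM are named, also without a link to a library. Each group had 3 biological replicates according to the design text. Each tumour type is represented by 1 line, so features of the type and of the individual line cannot be told apart, and p-values measure only the spread between libraries of these lines.

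Germinal centre B-cells are B-cells that mutate and switch their immunoglobulin genes under the transcriptional repressor BCL6 before they leave as memory or plasma cells. GCB lymphomas retain much of that program. ABC lymphomas are known for chronic signalling from the B-cell receptor, or from Toll-like receptors through MYD88, to the transcription factor NF-kB, and for high IRF4, which drives early plasma cell differentiation.

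The untreated libraries held 14210200 to 16405842 counts. Replicates of a line correlated at 0.986 to 0.991 across genes on log2(CPM + 1), and libraries of different lines at 0.800 to 0.812, where CPM is the count relative to the library's total after TMM scaling, on the usual CPM scale. These correlations are over genes, which are not independent. Along the first principal component, which carried 92.9% of the spread, the libraries fell apart by line. The second, with 2.66%, set SU-DHL6 replicate 1 (score 32.1) apart from its replicates 2 and 3 (-15.8 and -16.7), and its count-weighted GC content was 49.7% against 50.7% in both of those. Pseudogenes took 7.69 to 8.41% of counts in SU-DHL6 and 6.59 to 6.86% in OCI-LY3, and mitochondrial genes 7.83 to 8.0% and 9.27 to 9.76%. The part of these differences in the results was not tested beyond the offsets for GC and length and the omission of each library that are given among the processing alternatives.

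In the main comparison 5537 genes were higher in OCI-LY3 (33.6% of those tested) and 5552 were higher in SU-DHL6 (33.7%), at a Benjamini-Hochberg adjusted p under 0.05 in edgeR's quasi-likelihood test. Together 67.3% of tested genes were called, and in 70.9% the libraries of the lines did not overlap. A call by itself therefore says little about a gene, and the lists described here are read against these shares. Of the called genes 6886 differed by at least 1 on the log2 scale and 1099 by at least 5. The median log2 difference over all tested genes, OCI-LY3 minus SU-DHL6 as throughout, was -0.03.

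The 4 markers of the 2 lymphoma types followed the labels. IRF4, the plasma cell and ABC transcription factor, was measured at 913, 885 and 889 CPM in OCI-LY3 replicates 1 to 3 and at 132, 136 and 140.2 CPM in SU-DHL6, a log2 difference of 2.72 ± 0.08 (SE, n = 3 per line, adjusted p = 1.6e-12). CCND2, which encodes cyclin D2, stood at 895, 856 and 868 CPM against 0.339, 0.435 and 0.433 CPM (log2 difference 11.05 ± 0.15, adjusted p = 3.7e-15). Both genes were high in every OCI-LY3 library, and for CCND2 the SU-DHL6 libraries were close to 0.

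BCL6 was lower in OCI-LY3 but far from absent, with 135, 131 and 131 CPM against 241, 261 and 255 CPM in SU-DHL6 (log2 difference -0.93 ± 0.08, adjusted p = 1.7e-07). DTX1, an E3 ubiquitin ligase and regulator of Notch signalling, was at 0.279, 0.140 and 0.514 CPM in OCI-LY3 and at 807, 1054 and 1008 CPM in SU-DHL6 (log2 difference -11.56 ± 0.25, adjusted p = 1.6e-13). The libraries of the lines did not overlap for any of the 4 markers, but BCL6 separated them by much less than DTX1. CCND2 is the only one of the 4 with over 10% of its exonic bases shared with another annotated gene, and strand use in the counting is not given in the sources used here.

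**Figure D1:**
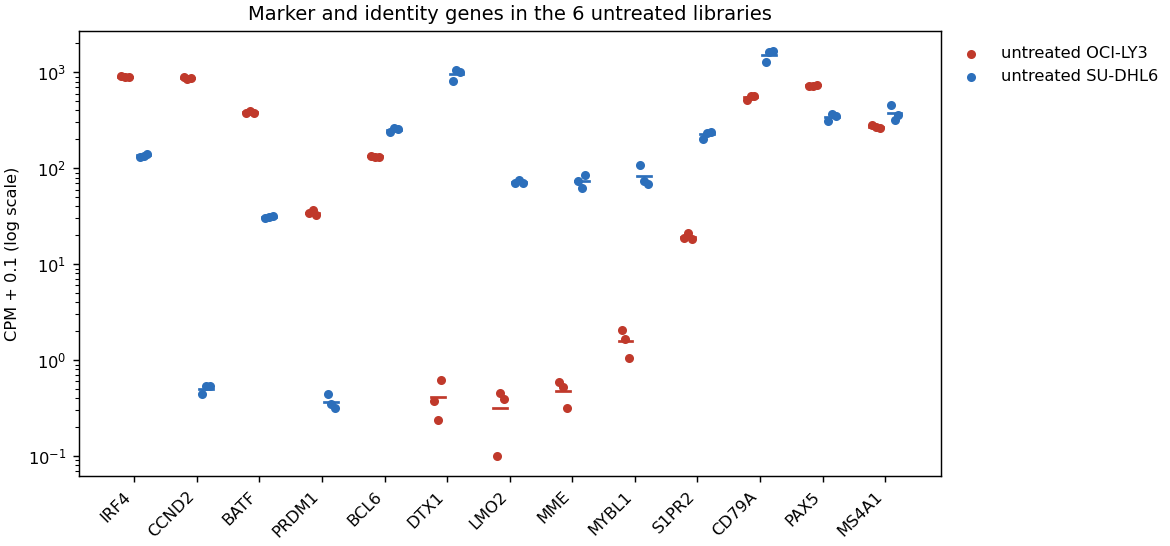
Levels of 13 marker and identity genes in each untreated library, as CPM + 0.1 on a log axis; red points are the 3 OCI-LY3 libraries, blue points the 3 SU-DHL6 libraries and short lines their means. CCND2, PRDM1, DTX1, LMO2 and MME were close to 0 in the lower line, whereas BCL6, PAX5 and MS4A1 were well expressed in both.

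Of 5 B-lineage markers, CD79A, CD79B, MS4A1 and PAX5 were counted in both lines, and the remaining marker is not reported here. CD79A and CD79B, the signalling chains of the B-cell receptor, were lower in OCI-LY3 by log2 differences of -1.47 ± 0.12 and -2.13 ± 0.11 (adjusted p = 8.1e-08 and 3.3e-10). Their levels in OCI-LY3 were 509 to 565 and 138 to 146 CPM. MS4A1, the gene of CD20, differed little (282, 267 and 261 CPM against 456, 321 and 354 CPM, log2 difference -0.48 ± 0.12, adjusted p = 0.0028). PAX5, the factor that maintains B-cell identity, was higher in OCI-LY3, at 727, 727 and 735 CPM against 309, 368 and 348 CPM (log2 difference 1.10 ± 0.10, adjusted p = 2.7e-07).

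Markers of other cell types were at or near 0. Summed CPM of 5 T-cell markers was 0.0702 to 0.627 in OCI-LY3 and 0.435 to 0.650 in SU-DHL6, with 3 and 2 of the 5 at 0 counts. Sums for 3 NK-cell, 4 myeloid, 2 erythroid and 3 epithelial markers stayed at or under 1.18 CPM in every untreated library. The 3 stromal markers summed to 24.6 to 25.8 CPM in OCI-LY3 and 0.136 to 0.186 CPM in SU-DHL6, nearly all of it from the collagen gene COL1A1 (22.1, 22.1 and 23.1 CPM against 0.136, 0.186 and 0 CPM). In bulk libraries a smaller share of cells with a transcript and less RNA per cell cannot be told apart.

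Genes that separate ABC from GCB tumours in published classifiers were examined as a pair of lists. Of 23 ABC genes, all tested, 19 were higher in OCI-LY3 and 4 in SU-DHL6, with a median log2 difference of 2.99 against -0.03 over all tested genes. Of 18 GCB genes, all tested, 18 were higher in SU-DHL6 and 0 in OCI-LY3, with a median of -4.63, or -4.60 with genes at 0 set to their bound. These genes were assembled with earlier results of these data known, so their direction is described, not tested as a list.

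Among the ABC genes, BATF, an AP-1 family factor of activated lymphocytes, was at 372, 393 and 379 CPM in OCI-LY3 and at 29.9, 31.2 and 31.6 CPM in SU-DHL6 (log2 difference 3.62 ± 0.11, adjusted p = 1.5e-12). PIM2, a survival kinase, was at 790.3, 801 and 787 CPM against 92.6, 117 and 127 CPM (2.82 ± 0.12, adjusted p = 4.2e-11). CREB3L2, a membrane-bound transcription factor of the secretory pathway, had 182, 168 and 165 CPM in OCI-LY3 and no count in SU-DHL6, at least 2558-fold higher against a floor of 3 counts over the 3 SU-DHL6 libraries.

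FOXP1, a repressor of plasma cell differentiation that is a hallmark of ABC tumours, was higher in OCI-LY3 by 2.99 ± 0.10 (309, 307 and 293 CPM against 42.6, 34.9 and 37.1 CPM). CFLAR, an inhibitor of caspase-8, was higher by 4.99 ± 0.22, and LIMD1, a LIM-domain scaffold protein, by 6.17 ± 0.18 (adjusted p = 2e-10 and 1.1e-12). PIM1, the sister kinase of PIM2, was higher by only 0.94 ± 0.09 and was well expressed in both lines (1157, 1142 and 1197 CPM against 545, 632 and 638 CPM).

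The 4 ABC genes that went the other way were PRKCB, IGHM, FUT8 and BMF. PRKCB encodes protein kinase C beta, which links the B-cell receptor to NF-kB. It had no count in OCI-LY3 and 40.6, 35.4 and 34.2 CPM in SU-DHL6, at least 517-fold higher. IGHM, the immunoglobulin mu constant gene, was at 196, 214 and 218 CPM against 3822, 4384 and 4806 CPM (-4.37 ± 0.12, adjusted p = 5e-13). FUT8, a fucosyltransferase, was lower by -2.16 ± 0.16 on the log2 scale, and BMF, a pro-apoptotic BCL2 relative, by -0.56 ± 0.10 (adjusted p = 2e-08 and 0.00012).

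Among the GCB genes, LMO2, a LIM-domain cofactor and routine GCB stain, was at 0, 0.351 and 0.294 CPM in OCI-LY3 and at 70.1, 75.0 and 69.8 CPM in SU-DHL6 (-8.34 ± 0.30, adjusted p = 8.3e-12). MME, which encodes the surface peptidase CD10, was at 0.488, 0.421 and 0.220 CPM against 73.4, 62.4 and 85.6 CPM (-7.57 ± 0.34). VPREB3, a surrogate light chain relative, was lower in OCI-LY3 by -7.66 ± 0.28, and SERPINA9, the germinal centre serpin, by -5.06 ± 0.32. All of these were near 0 in OCI-LY3, although SERPINA9 reached only 7.19 to 7.58 CPM in SU-DHL6.

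S1PR2, the receptor that confines B-cells to the germinal centre, kept a measurable level in OCI-LY3 (18.5, 21.1 and 18.3 CPM against 202, 233 and 240.1 CPM, -3.54 ± 0.11, adjusted p = 1.9e-12). GCSAM, a germinal centre signalling adaptor, differed by -5.30 ± 0.20 and ASB13, a ubiquitin ligase subunit, by -3.41 ± 0.10. The smallest difference of the list was in the kinase NEK6, at 284, 279.8 and 292 CPM against 351, 377 and 396 CPM (-0.39 ± 0.08, adjusted p = 0.00047). MEF2B, a lineage factor mutated in GCB tumours, was lower by -2.32 ± 0.13, but over 10% of its exonic bases are shared with another gene.

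The wider germinal centre program was less uniform. Of 36 tested genes 24 were higher in SU-DHL6 and 8 in OCI-LY3, and the median log2 difference was -1.26. CD27, a costimulatory receptor of the TNF receptor family, was at 0.348, 0.140 and 0.367 CPM against 149, 181 and 189 CPM. CXCR4, the chemokine receptor of the dark zone, was at 40.5, 38.8 and 37.4 CPM against 497, 464 and 509 CPM (-3.66 ± 0.10, adjusted p = 8.3e-13). BACH2, a repressor of the plasma cell fate, was lower in OCI-LY3 by -4.27 ± 0.14.

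Some genes of the program went the other way. MEF2C, a factor that acts downstream of B-cell receptor signals, was higher in OCI-LY3 (75.4, 109 and 69.4 CPM against 4.41, 3.29 and 3.76 CPM, 4.47 ± 0.22). P2RY8, which like S1PR2 acts in confinement, overlapped between the lines (279.7, 277 and 296 CPM against 248, 294 and 310.0 CPM, adjusted p = 0.99).

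Of 25 plasma cell genes 24 were tested, and 19 were higher in OCI-LY3 and 3 in SU-DHL6, with a median of 1.95. PRDM1, which encodes the plasma cell master repressor BLIMP-1, was at 34.1, 36.6 and 32.4 CPM against 0.339, 0.249 and 0.217 CPM (6.96 ± 0.20, adjusted p = 1e-12). XBP1, the factor that expands the secretory apparatus, was at 216, 210.2 and 219.5 CPM against 26.7, 39.9 and 44.1 CPM (2.54 ± 0.16). Its activator, the endoplasmic reticulum stress sensor ERN1, was higher by 3.50 ± 0.12.

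The 3 exceptions were JCHAIN, CD38 and TNFRSF17. JCHAIN, the joining chain of polymeric IgM and IgA, was at 0.697, 0.421 and 0.514 CPM in OCI-LY3 and at 185, 160.3 and 161 CPM in SU-DHL6 (-8.25 ± 0.20). CD38, an ectoenzyme also of germinal centre cells, was at 22.6, 23.8 and 22.3 CPM against 446, 401 and 395 CPM (-4.17 ± 0.11). TNFRSF17, the receptor BCMA, was lower by -3.44 ± 0.25, with 8.22, 4.07 and 8.52 CPM in OCI-LY3. SDC1, the plasma cell antigen CD138, was low in both lines (4.04, 3.23 and 4.33 CPM against 1.02, 0.870 and 0.578 CPM), and MZB1, a chaperone of immunoglobulin assembly, overlapped between them (adjusted p = 0.66).

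Of 39 B-lineage transcription factors 19 were higher in OCI-LY3 and 14 in SU-DHL6, and the median was 0.36, or 0.63 without OCI-LY3 replicate 2 and 0.56 without genes that vary over 2-fold between replicates. TCF4, the E protein E2-2, was at 473, 459 and 448 CPM in OCI-LY3 and at 0.475, 0.870 and 0.578 CPM in SU-DHL6 (9.45 ± 0.19, adjusted p = 9e-14). ETV6, an ETS family repressor, was at 122, 122 and 124 CPM against 2.98, 2.36 and 2.89 CPM (5.48 ± 0.14). TCF3, another E protein gene, overlapped between the lines (416, 426 and 426 CPM against 423, 519.9 and 541 CPM, adjusted p = 0.11, and 0.021 without SU-DHL6 replicate 1 or 0.031 with total-count scaling).

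The inhibitors of E proteins went in opposite directions. ID2 was at 195, 187 and 347 CPM against 8.61, 3.54 and 9.39 CPM (5.09 ± 0.45, adjusted p = 3.8e-06). ID3 was at 18.2, 20.4 and 17.6 CPM against 57.5, 79.1 and 77.9 CPM (-1.93 ± 0.13). IKZF2, an Ikaros factor, was at 1.11, 2.60 and 0.588 CPM against 147, 78.4 and 100.2 CPM, and varied over 2-fold between replicates. EBF1 (adjusted p = 0.051) and ETS1 (adjusted p = 0.35) were not called, and EBF1 passed without SU-DHL6 replicate 1 (adjusted p = 0.0032) and in DESeq2 (0.034), among others.

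**Figure D2:**
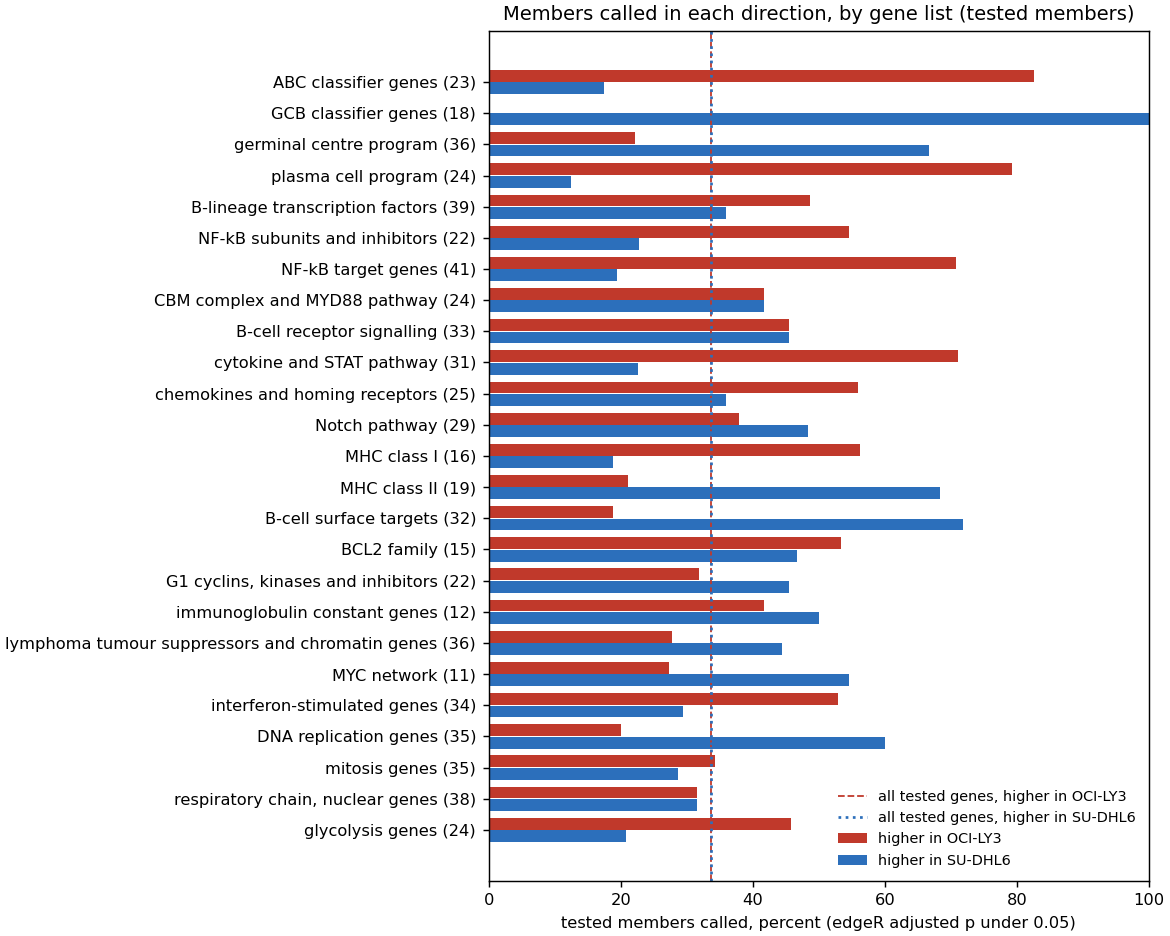
Percent of tested members called higher in OCI-LY3 (red) and higher in SU-DHL6 (blue) for 25 gene lists, with the number tested in parentheses; the lines mark the shares over all tested genes, 33.6% and 33.7%. The ABC, plasma cell, NF-kB target and cytokine lists lay mostly toward OCI-LY3, and the GCB, germinal centre, MHC class II, surface target and DNA replication lists mostly toward SU-DHL6.

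Immunoglobulin genes differed between the lines in heavy chain class and light chain. In OCI-LY3 the kappa constant gene IGKC had 0, 0.140 and 0 CPM, and in SU-DHL6 1248, 1450.4 and 1484 CPM, a ratio of 29419 with an exact 95% counting interval of 8144 to 242926. The lambda gene IGLC3 was at 731, 818 and 771 CPM in OCI-LY3 and at 20.3, 25.4 and 25.3 CPM in SU-DHL6 (5.03 ± 0.13, adjusted p = 3.6e-13). IGLC2, its neighbour, overlapped between the lines (adjusted p = 0.074, and 0.042 without OCI-LY3 replicate 2 or 0.048 without SU-DHL6 replicate 3). Lambda genes were thus counted in both lines. IGLL5, which shares exons with the lambda locus, was among the largest differences toward SU-DHL6.

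Of the heavy chain genes, IGHM and IGHD were the high ones in SU-DHL6, with IGHD at 28.4, 24.2 and 25.4 CPM against 303, 387 and 391 CPM (-3.79 ± 0.13). IGHG3 was at 713, 765 and 754 CPM in OCI-LY3 against 26.9, 32.8 and 34.5 CPM (4.57 ± 0.12), and IGHG1 and IGHG4 were also higher there by 1.58 ± 0.14 and 2.76 ± 0.12. IGHG2 went the other way (-1.24 ± 0.26, adjusted p = 0.0013). The IGHG genes, like the IGLC genes, are near-identical copies among which counting can split reads, so the order within each family is uncertain. Of 12 tested constant genes 5 were higher in OCI-LY3 and 6 in SU-DHL6. Their median of -0.49 became 0.25 without genes that share exons and -1.23 under a filter of 5 CPM.

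Genes of B-cell receptor signalling were split evenly, with 15 of 33 higher in OCI-LY3, 15 higher in SU-DHL6 and a median of 0.15, which was 0.04 without SU-DHL6 replicate 1, 0.05 with offsets for GC and length and 0.08 with total-count scaling. SYK, the kinase that docks on phosphorylated CD79, was at 1058, 1031 and 1082 CPM against 145, 155 and 163 CPM (2.77 ± 0.09, adjusted p = 1.9e-12). LYN, which phosphorylates CD79, was higher by 0.95 ± 0.08, and the adaptor BLNK by 0.61 ± 0.10. BTK was at 144, 171 and 168 CPM against 143, 97.3 and 85.4 CPM (0.57 ± 0.17, adjusted p = 0.0098). PLCG2, the phospholipase activated by BTK, was not called (0.15 ± 0.08, adjusted p = 0.1, and 0.028 in DESeq2).

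Inhibitors of the pathway fell on both sides. CD5, a negative co-receptor, was at 26.5, 32.4 and 33.2 CPM against 0, 0.249 and 0 CPM (8.30 ± 0.50), and the phosphatase PTPN6 was higher in OCI-LY3 by 1.74 ± 0.12. CD72, an inhibitory lectin, was lower by -2.34 ± 0.11, the ubiquitin ligase CBLB by -2.80 ± 0.13 and CD22 by -0.76 ± 0.22. CD81, a tetraspanin of the B-cell co-receptor complex, was at 106, 128 and 106 CPM against 411, 528 and 531 CPM (-2.11 ± 0.13, adjusted p = 2.8e-09).

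Surface proteins that are targets of antibodies or engineered T cells were mostly higher in SU-DHL6. Of 34 such genes 32 were tested, 23 were higher in SU-DHL6 and 6 in OCI-LY3, and the median was -2.42. Beside CD27 and CD38 this included CD52, the target of alemtuzumab (2.51, 2.18 and 2.20 CPM against 173, 194 and 201 CPM, -6.36 ± 0.16). TNFRSF13C, the BAFF receptor, was at 0.557, 0.632 and 0.882 CPM against 156, 192 and 193 CPM (-8.02 ± 0.18, adjusted p = 1.6e-13). SLAMF6 had no count in OCI-LY3 and was at least 1225-fold higher in SU-DHL6.

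The Fc receptor-like genes FCRL2, FCRL3 and FCRL5, co-receptors of B-cells, were higher in SU-DHL6. FCRL3 had 0, 0 and 0.147 CPM in OCI-LY3 and 538, 443 and 444 CPM in SU-DHL6 (ratio 10009, exact 95% counting interval 2771 to 82656). In OCI-LY3 FCRL2 was lower by -6.83 ± 0.16 and FCRL5 by -4.36 ± 0.26. CD58, the ligand through which T cells engage B-cells, was low in both lines (0.279, 0.421 and 0.220 CPM against 2.31, 2.18 and 1.59 CPM).

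Higher in OCI-LY3 were CD37, CD40 and CD70. CD37, a tetraspanin, was at 1348, 1347 and 1355 CPM against 475, 589 and 619.7 CPM (1.27 ± 0.10). CD40, the receptor for T-cell help, was at 336, 426 and 347 CPM against 77.8, 70.0 and 79.6 CPM (2.29 ± 0.15), and CD70, the ligand of CD27, was higher by 2.25 ± 0.12. The BAFF and APRIL receptor TNFRSF13B, counted among the ABC genes, was at 318, 355 and 349.7 CPM against 36.6, 43.4 and 44.4 CPM. Thus the 3 receptors of that family differed in direction, with TNFRSF13B higher in OCI-LY3 and TNFRSF13C and TNFRSF17 higher in SU-DHL6.

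NF-kB consists of dimers of REL proteins that IkB proteins hold in the cytoplasm until the IkB kinase marks those inhibitors for degradation. Of 22 tested subunits, inhibitors and kinases 12 were higher in OCI-LY3 and 5 in SU-DHL6, with a median of 0.39, or 0.21 with offsets for GC and length. NFKB1, the p50 precursor, was at 221, 237 and 240.0 CPM against 54.3, 59.8 and 67.6 CPM (1.94 ± 0.10, adjusted p = 4.2e-10). NFKB2, the p52 precursor, was higher by 0.80 ± 0.11. REL and RELA overlapped between the lines (adjusted p = 0.38 and 0.2, and 0.029 for RELA with offsets for GC and length), and RELB was lower in OCI-LY3 (-0.66 ± 0.18, adjusted p = 0.0062).

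Several inhibitors of the pathway were higher in OCI-LY3. TNFAIP3, the deubiquitinase A20 that shuts the signal off, was at 204, 196 and 184 CPM against 20.2, 18.1 and 17.8 CPM (3.38 ± 0.10, adjusted p = 1.8e-12). TRAF3, the brake on the alternative pathway, was higher by 3.54 ± 0.19, NFKBIE by 1.67 ± 0.33 and NFKBIA by 0.92 ± 0.14. NFKBIZ, an IkB family gene that is not counted here as an inhibitor, was higher by 1.74 ± 0.15. The kinase gene IKBKB was lower, at 20.3, 21.2 and 23 CPM against 99.0, 97.6 and 103 CPM (-2.21 ± 0.10).

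Of 43 NF-kB target genes 41 were tested. In OCI-LY3 29 were higher, 8 were higher in SU-DHL6 and 4 were not called, with a median of 1.93. Because the list also holds CCND2, IRF4 and other genes of the ABC list, the lists are not separate evidence. CCR7, the lymph node homing receptor, was at 378, 462 and 390.1 CPM against 16.3, 17.7 and 18.9 CPM (4.54 ± 0.12). EBI3, a cytokine subunit, was at 393, 381 and 395 CPM against 0.678, 0.124 and 0.578 CPM (9.73 ± 0.27), and BCL2A1, an anti-apoptotic BCL2 relative, at 109, 106 and 101 CPM against 1.76, 2.73 and 2.09 CPM.

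TNF and its relative LTA were at 244 to 249.8 and 335 to 345 CPM in OCI-LY3 and at 17.0 to 21.5 and 30.9 to 38.2 CPM in SU-DHL6. IL6 and IL10 had no count in SU-DHL6 and were low in OCI-LY3, at 3.16 to 3.48 and 1.91 to 3.23 CPM, at least 50.1-fold and 39.2-fold higher. Targets that went the other way included the phosphatase DUSP2 (57.7, 65.1 and 60.8 CPM against 129.6, 160.2 and 162 CPM, -1.30 ± 0.11) and LTB, the partner of LTA on the cell surface (-0.80 ± 0.18, adjusted p = 0.0012). CCL3 and CCL4, chemokines induced by B-cell receptor signals, were also higher in SU-DHL6. The log2 difference was -2.08 ± 0.23 for CCL3, and CCL4 had a ratio of 44.9 with an exact 95% counting interval of 12.1 to 376. CCL3 shares most of its exonic bases with another gene.

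The binding motif of NF-kB, the kappa-B consensus, was searched on both strands of the 250 bases upstream of gene starts in the RefSeq promoter table (GRCh38.p14), outside chromosomes 8 and Y. It was present in 9.6% of 27195 promoters, in 11.8% of 10488 promoters of tested genes, in 12.5% of those of genes higher in OCI-LY3 and in 11.3% of those of genes higher in SU-DHL6. Of 33 tested NF-kB targets with a promoter entry 13 (39.4%) had a match, and of the 24 among them that were higher in OCI-LY3 10 (41.7%) did. The targets were listed because NF-kB is known to act on them, so this share describes the list and not these libraries. The following stretches show matches, in capitals, for targets with named differences between the lines, with LTB as one that was higher in SU-DHL6.
CXCL10: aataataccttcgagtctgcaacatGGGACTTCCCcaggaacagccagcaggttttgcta
CFLAR: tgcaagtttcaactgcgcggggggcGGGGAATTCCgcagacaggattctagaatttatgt
TNFAIP3: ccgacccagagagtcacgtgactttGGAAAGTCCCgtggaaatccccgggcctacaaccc
NFKB1: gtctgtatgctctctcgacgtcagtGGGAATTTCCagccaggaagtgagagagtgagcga
NFKBIA: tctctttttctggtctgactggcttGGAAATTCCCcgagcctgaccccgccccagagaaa
LTB: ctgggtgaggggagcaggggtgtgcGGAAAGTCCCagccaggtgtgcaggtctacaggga

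These lie at chr4:76023585-76023644 on the minus strand for CXCL10, chr2:201118594-201118653 on the plus strand for CFLAR and chr6:137867167-137867226 on the plus strand for TNFAIP3. The others lie at chr4:102501285-102501344 on the plus strand for NFKB1, chr14:35404796-35404855 on the minus strand for NFKBIA and chr6:31582477-31582536 on the minus strand for LTB. Each is written 5′ to 3′ on the strand of its gene, in GRCh38.p14. TNFAIP3 and LTB carry the same 10 letters in capitals, GGAAAGTCCC, and their levels differed in opposite directions between the lines. TNFAIP3 has a second match, GGAAATCCCC at positions -55 to -46 from the gene start, left in lower case in its stretch, and LTB has 1 match. CXCL10 has a further match, GGGAAATTCC at positions -177 to -168, outside its stretch. Matches not printed include those of IL2RA, also higher in SU-DHL6 (log2 difference -1.34), and of BIRC3, which was not called. A match describes the letters only. Of 2 further motifs, the octamer ATGCAAAT of OCT factors was found in 1.16% of promoters of genes higher in OCI-LY3 and 1.67% of those higher in SU-DHL6, and in 1.29% of those of all tested genes. The core of the interferon-stimulated response element, GAAA, any 2 bases and again GAAA, was found in 2.53% and 2.22%, and in 2.42% over all tested genes.

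Upstream of NF-kB, a complex that holds BCL10 and MALT1 relays B-cell receptor signals and MYD88 relays Toll-like receptor signals. Of 24 tested genes of these routes 10 were higher in each line and the median was -0.14. It became 0.10 under a filter of 5 CPM, -0.28 without OCI-LY3 replicate 1, -0.09 without SU-DHL6 replicate 3 and -0.29 without genes that share exons. MALT1 was higher in OCI-LY3 by 0.58 ± 0.10 and MYD88 by 0.83 ± 0.08 (109, 104 and 101 CPM against 57.9, 57.2 and 61.5 CPM). BCL10 was slightly lower (-0.28 ± 0.10, adjusted p = 0.024) and was not called without SU-DHL6 replicate 1 (adjusted p = 0.057) or without OCI-LY3 replicates 2 or 3 (adjusted p = 0.055 and 0.079), nor without a filter (0.12) or in the untreated libraries alone (0.059).

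The kinase genes acting after MYD88 were divided. IRAK1 was at 349.9, 277 and 315 CPM against 79.1, 114 and 97.7 CPM (1.69 ± 0.19), and IRAK4 was lower in OCI-LY3 (-1.38 ± 0.22). CD180, a Toll-like receptor relative, and LY86, its partner at the cell surface, were lower together, at 2.25 to 2.57 and 1.46 to 1.83 CPM against 55.7 to 72.6 and 53.0 to 60.5 CPM. UNC93B1, which carries endosomal Toll-like receptors to their compartment, was higher in OCI-LY3 by 1.46 ± 0.17.

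Of 31 tested genes of cytokine receptors, kinases and STAT factors 22 were higher in OCI-LY3 and 7 in SU-DHL6, with a median of 1.56. IL6R was at 99.9, 93.1 and 98.5 CPM against 0.339, 0 and 0 CPM (9.66 ± 0.38, adjusted p = 6.6e-11). STAT3, which transmits IL-6 and IL-10 signals, was at 199, 191 and 210.1 CPM against 37.4, 36.2 and 44.3 CPM (2.35 ± 0.10), and its feedback inhibitor SOCS3 was at 84.6, 93.1 and 90.0 CPM against 0.203, 0 and 0 CPM (ratio 1329, exact 95% counting interval 454 to 6446). IL10RA was higher by 3.77 ± 0.23, JAK2 by 2.23 ± 0.19 and STAT5A by 4.21 ± 0.14.

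On the SU-DHL6 side stood IL4R, SOCS1 and STAT2. IL4R was at 6.83, 8.07 and 9.11 CPM in OCI-LY3 and at 226, 253 and 261 CPM in SU-DHL6 (-4.95 ± 0.49, adjusted p = 1.2e-05). SOCS1, the feedback inhibitor of IL-4 and interferon signals, was lower in OCI-LY3 by -1.41 ± 0.21, and STAT2, a subunit of the interferon-activated factor, by -1.83 ± 0.10. The receptors for IL-6 and IL-4 thus differed in opposite directions.

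Of 25 tested chemokine and homing genes 14 were higher in OCI-LY3 and 9 in SU-DHL6 (median 1.18). CXCL10 had 213, 208 and 204 CPM in OCI-LY3 and no count in SU-DHL6, at least 3108-fold higher. Its receptor CXCR3 was also counted only in OCI-LY3 (39.1, 45.9 and 43.0 CPM), at least 635-fold higher. CCL22, which attracts T cells, was at 122, 121 and 133 CPM against 0.407, 0.186 and 0 CPM.

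The integrin genes ITGA4 and ITGAL, which mediate adhesion, were lower in OCI-LY3. ITGA4 was at 0, 0.772 and 0.735 CPM against 81.6, 55.7 and 61.2 CPM (-7.03 ± 0.45), and ITGAL, a chain of LFA-1, was at 57.1, 54.1 and 57.5 CPM against 269.9, 316 and 317 CPM (-2.42 ± 0.11). CD44, the hyaluronan receptor, went the other way by far, at 669, 759.8 and 755 CPM against 1.29, 1.37 and 2.17 CPM (8.83 ± 0.27, adjusted p = 5.2e-12).

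In the Notch pathway a ligand on a neighbouring cell releases the receptor's intracellular part, which activates genes together with RBPJ and MAML coactivators. The receptor genes NOTCH1 and NOTCH2 were higher in OCI-LY3. NOTCH1 was at 251, 251 and 268 CPM against 5.70, 7.40 and 6.21 CPM (5.31 ± 0.15, adjusted p = 8.2e-13), and NOTCH2 was at 159.6, 151 and 144 CPM against 40.8, 46.7 and 43.9 CPM (1.79 ± 0.09). LFNG, the glycosyltransferase that tunes receptor binding, was higher by 7.68 ± 0.45 and the coactivator MAML2 by 5.24 ± 0.32.

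DTX1, HES6 and HEY2, genes counted here with the pathway, were higher in SU-DHL6. DTX1 was the most abundant of these in SU-DHL6, with the CPM values given for it as a marker. HES6 and HEY2 had no count in OCI-LY3 and were at 8.31 to 9.07 and 1.36 to 2.18 CPM in SU-DHL6, at least 121-fold and 24.6-fold higher. HES1, the classical target, was low in both lines (3.27, 2.95 and 1.91 CPM against 4.0, 4.41 and 5.06 CPM, adjusted p = 0.034), and its call was lost without OCI-LY3 replicate 2 or 3 or SU-DHL6 replicate 2 or 3 (adjusted p = 0.055, 0.14, 0.063 and 0.11), and without a filter (0.056). DTX3, a relative of DTX1, had no count in SU-DHL6 and 23.8, 20.7 and 22.0 CPM in OCI-LY3, at least 330.2-fold higher. Of 29 tested Notch genes 11 were higher in OCI-LY3 and 14 in SU-DHL6. The median of -0.43 became 0.16 under a filter of 5 CPM, which left 22 genes and 8 higher in SU-DHL6, and -0.72 with offsets for GC and length.

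MHC class II presents peptides to CD4+ T cells. Of 19 tested class II genes 13 were higher in SU-DHL6 and 4 in OCI-LY3, with a median of -1.30. HLA-DRA was at 897, 1042 and 959 CPM against 2106, 2147 and 2212 CPM (-1.16 ± 0.12, adjusted p = 6.3e-07). HLA-DMB, which loads peptides, was at 44.0, 47.5 and 54.1 CPM against 380.5, 415 and 390.5 CPM (-3.03 ± 0.11), and HLA-DQB1 was lower by -4.57 ± 0.11. HLA genes differ between people, so the size of such differences, counted against a common reference, is uncertain. CIITA, the transactivator of these genes, was nevertheless higher in OCI-LY3, at 235, 229 and 241 CPM against 87.6, 98.3 and 93.9 CPM (1.33 ± 0.10), and the invariant chain CD74 was not called (adjusted p = 0.085, and 0.0096 without SU-DHL6 replicate 3). CIITA shares over 10% of its exonic bases with another gene, and without such genes 2 of 15 class II genes were higher in OCI-LY3.

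Of 16 tested MHC class I genes 9 were higher in OCI-LY3 and 3 in SU-DHL6 (median 0.96). NLRC5, the class I transactivator, was at 60.1, 63.0 and 60.9 CPM against 0, 0 and 0.217 CPM (ratio 913, exact 95% counting interval 312 to 4432). HLA-B was higher by 2.88 ± 0.09, but HLA genes differ between people and resemble each other, so counts against 1 reference can shift between them. B2M varied between replicates (1058, 502 and 593 CPM against 286, 248 and 438 CPM) and was not called (adjusted p = 0.1, and 0.038 in DESeq2 or 0.028 in the untreated libraries alone). Without genes that share exons 1 of 10 class I genes was higher in SU-DHL6.

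Of 22 tested genes that control G1, 7 were higher in OCI-LY3 and 10 in SU-DHL6 (median -0.18, or -0.34 with offsets for GC and length), and without genes that share exons 6 of 15 were higher in SU-DHL6. Cyclin D genes were used differently. Beside CCND2, CCND1 was at 82.5, 84.0 and 87.0 CPM in OCI-LY3 and at 0, 0.249 and 0.0722 CPM in SU-DHL6 (9.46 ± 0.31), whereas CCND3 was at 16.4 to 19.6 CPM in OCI-LY3 and at no less than 192 CPM in SU-DHL6 (-3.59 ± 0.32, adjusted p = 2.1e-06). Per length, mean FPKM in OCI-LY3 was 107 for CCND2, 11.4 for CCND1 and 1.13 for CCND3, and in SU-DHL6 it was 14.3 for CCND3, 0.0517 for CCND2 and 0.0149 for CCND1. The order of the 3 cyclins was thus different in each line.

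CDKN2A encodes the inhibitors p16 and p14ARF and is often deleted in ABC lymphoma. It had no count in untreated or treated OCI-LY3 and 143, 96.3 and 186 CPM in untreated SU-DHL6, at least 1962-fold higher. Its neighbours on chromosome 9 behaved likewise. MTAP (chr9:21802543-21937651) had 0 counts against 982 and CDKN2B (chr9:22002903-22009363) had 0 against 48 over the untreated libraries. Genes on the side of the interferon cluster were counted in OCI-LY3, with KLHL9 (chr9:21329671-21335380) at 38.4, 36.6 and 37.7 CPM and FOCAD (chr9:20658309-20995955) at 46.1, 40.0 and 45.9 CPM. Their means in untreated SU-DHL6 were lower, at 18.2 CPM for KLHL9 and 18.7 CPM for FOCAD. HACD4, which lies between them, had 649 counts in untreated OCI-LY3 and 4 in untreated SU-DHL6. The interferon alpha genes of the cluster had no count in either line. Coordinates are those of the deposited table, which match GRCh38 gene models. RNA counts do not measure the number of gene copies, which was not tested.

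**Figure D3:**
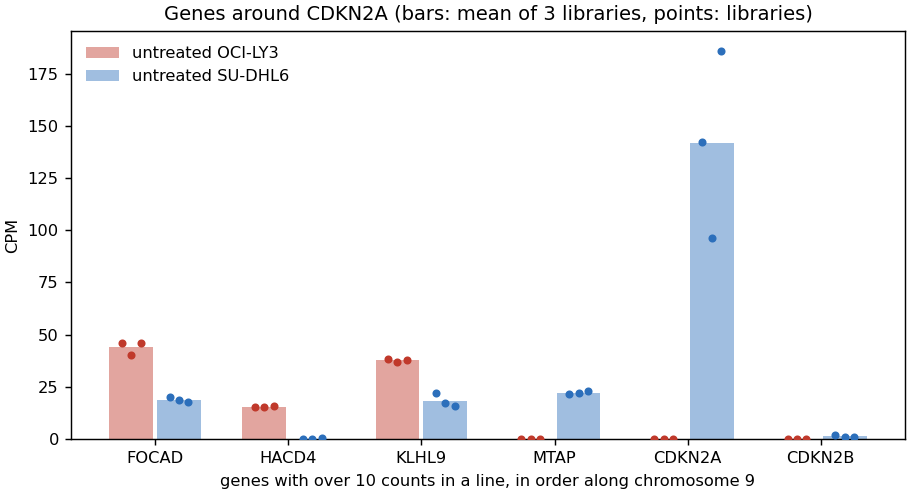
Levels in CPM of the genes around CDKN2A that had over 10 counts in at least 1 untreated line, in their order along chromosome 9; bars are means and points the 3 libraries of OCI-LY3 (red) and SU-DHL6 (blue). MTAP, CDKN2A and CDKN2B were at 0 in all 3 OCI-LY3 libraries, and KLHL9 and FOCAD were expressed there.

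All 15 tested genes of the BCL2 family were called, 8 higher in OCI-LY3 and 7 in SU-DHL6. The median was 0.32, or 0.18 without SU-DHL6 replicate 1 and 0.19 with offsets for GC and length, and 11 of the 15 had the same sign between the treated lines. BCL2 was at 533, 531 and 542 CPM against 182, 163 and 188 CPM (1.59 ± 0.09, adjusted p = 1.6e-09). BCL2L1 and MCL1, which like BCL2 protect mitochondria, were lower in OCI-LY3 by -0.58 ± 0.11 and -0.62 ± 0.09. Of the killers, BID was at 207, 212 and 217 CPM against 6.58, 6.90 and 8.74 CPM (4.84 ± 0.15) and BCL2L11 was higher by 3.29 ± 0.31, whereas HRK had no count in OCI-LY3 and was at least 454-fold higher in SU-DHL6. BAK1 was lower by -1.47 ± 0.12. BAX differed by 0.32 ± 0.12 (adjusted p = 0.029), a call lost without SU-DHL6 replicate 1 (adjusted p = 0.11) or OCI-LY3 replicates 2 or 3 (adjusted p = 0.083 and 0.059), and in the untreated libraries alone (0.054).

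MYC, a master regulator of growth, disagreed between OCI-LY3 replicates, at 18.1, 164 and 161 CPM against 8.0, 8.02 and 7.8 CPM in SU-DHL6. The log2 difference was 3.85 ± 1.22 (adjusted p = 0.021). The call was lost without any 1 SU-DHL6 library (adjusted p = 0.061, 0.063 and 0.061), without OCI-LY3 replicate 2 (0.051) or replicate 3 (0.05), and in limma-voom (0.066). All OCI-LY3 libraries were above all SU-DHL6 libraries, but replicate 1 stood far below the other two. Of 11 tested genes of the MYC network 3 were higher in OCI-LY3 and 6 in SU-DHL6 (median -0.30, or -0.17 without genes that share exons). They included the repressor MXD4 (-1.52 ± 0.15), and MYCL was higher in OCI-LY3 (2.04 ± 0.22).

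Of 36 tested tumour suppressor and chromatin genes of lymphoma 10 were higher in OCI-LY3 and 16 in SU-DHL6. Their median of -0.04 lay so close to 0 that it moved by over 1.5 times or changed sign in nearly every alternative, among them without SU-DHL6 replicate 2 (0.06) and without OCI-LY3 replicate 1 (0.11). TET2, a DNA demethylase, was higher in OCI-LY3 (47.6, 38.5 and 37.3 CPM against 10.6, 7.95 and 6.93 CPM, 2.27 ± 0.17) and so was TNFRSF14, the receptor HVEM (3.53 ± 0.20). BTG2, an antiproliferative gene, was at 198, 189 and 190.1 CPM against 604, 638 and 648 CPM (-1.71 ± 0.08), and SMARCA4, an ATPase of chromatin remodelling, was lower by -1.01 ± 0.10.

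Of 34 tested interferon-stimulated genes 18 were higher in OCI-LY3 and 10 in SU-DHL6. The median was 0.58, or 0.30 under a filter of 5 CPM and 1.21 without genes that share exons. PARP9 and DTX3L, which form a complex, had at least 127 and 194 CPM in OCI-LY3 and at most 0.435 CPM in SU-DHL6. IFIH1, the sensor MDA5, was higher by 5.37 ± 0.29, and ISG20, an exonuclease, by 4.65 ± 0.14. CMPK2, a mitochondrial nucleotide kinase, had no count in OCI-LY3, and TRIM22, an antiviral ubiquitin ligase, was lower there (20.5, 18.1 and 21.4 CPM against 97.3, 72.6 and 80.9 CPM, -2.06 ± 0.12). Members of the list were thus found at both ends.

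DNA replication genes were more often higher in SU-DHL6, with 21 of 35 against 7 of 35 higher in OCI-LY3 and a median of -0.48. Only 13 of these 28 called genes had the same sign between the treated lines, against 85.7% of all called genes. MCM6 was at 88.6, 86.2 and 82.5 CPM against 329.8, 267 and 291 CPM (-1.79 ± 0.10), and RRM1, a subunit of ribonucleotide reductase, was lower by -1.26 ± 0.11. MCM5, which belongs to the same helicase ring as MCM6, was higher in OCI-LY3 (959, 1022 and 1166 CPM against 430.3, 515 and 502 CPM, 1.12 ± 0.10). Of 35 mitosis genes 12 were higher in OCI-LY3 and 10 in SU-DHL6 (median 0.11, and 0.03 with total-count scaling or 0.06 without SU-DHL6 replicate 2), and 16 of the 22 called genes kept their sign in the treated lines. PLK1 was higher in OCI-LY3 by 1.14 ± 0.15 and the motor KIF11 lower by -0.97 ± 0.12.

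Of 38 nuclear genes of the respiratory chain 12 were higher in each line, both below the shares over all genes. The median of 0.03, likewise close to 0, changed sign with total-count scaling (-0.04) and without SU-DHL6 replicate 1 (-0.01), and without genes that share exons 7 of 22 were higher in OCI-LY3. Of 24 glycolysis genes 11 were higher in OCI-LY3 and 5 in SU-DHL6 (median 0.30), the latter 3 without SU-DHL6 replicate 3. GPI was at 1224, 1317 and 1470.0 CPM against 370.5, 445 and 450.2 CPM (1.66 ± 0.10), HK2 was higher by 1.36 ± 0.09 and PFKFB4, a regulator of the pathway, by 3.08 ± 0.10. GAPDH, in contrast, was at 4893, 6019 and 5700.4 CPM against 8211, 7124 and 9058 CPM (-0.55 ± 0.13, adjusted p = 0.0017).

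The 15 largest differences in each direction were taken among genes with a mean of at least 10 CPM, leaving out immunoglobulin segments such as IGKC, pseudogenes and clone-named genes. They were, with the exception of FCRL3, genes with no count in the other line, so their order follows their level. In OCI-LY3 these were EPHB1, CT45A1, MYOCD, F5, CXCL10, CACNA1B, CREB3L2, APOL1, COBLL1, IGF2BP1, YBX3, ADRA1B, SLC12A7, RNF182 and ADIRF. EPHB1, an ephrin receptor kinase, was at 491, 457 and 486 CPM, at least 7121-fold above the floor of SU-DHL6. MYOCD, a coactivator of smooth muscle genes, was at 379.8, 364 and 344 CPM and F5, coagulation factor V, at 259, 249 and 239 CPM. CT45A1 belongs to a family of near-identical testis genes and ADIRF shares all its exonic bases with another gene, so both are uncertain.

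In SU-DHL6 they included IGLL5, APOD, UCHL1, BMP7, CDKN2A, NCR3LG1, FAM167A-AS1, ALOX5, SLC25A27, SLAMF6, NOTUM, INSR, FCRL3 and BTNL9. IGLL5, which shares exons with the lambda locus and is uncertain for that reason, was at 639, 782 and 750.5 CPM. APOD, a lipid carrier, was at 203, 254 and 234 CPM, at least 3252-fold above the floor of OCI-LY3. UCHL1, a deubiquitinase, was at 154, 153 and 194 CPM, BMP7, a growth factor, at 142, 184 and 137 CPM, and NCR3LG1, the ligand of an activating NK-cell receptor, at 131, 110.5 and 94.4 CPM. INSR, the insulin receptor, was at 61.5, 61.3 and 88.8 CPM and had no count in OCI-LY3. In SU-DHL6 153 genes, 123 of them protein-coding, reached 5 CPM in all 3 libraries and stayed under 0.2 CPM in all OCI-LY3 libraries, and the reverse held for 237 genes, 204 of them protein-coding. Of these, 108 and 170 had no count at all in the other line.

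Differences were not spread evenly over chromosomes. Among 10008 protein-coding genes with a mean of at least 5 CPM, 34.6% were higher in OCI-LY3 and 35.3% in SU-DHL6, with a median of -0.01. On chromosome 6, 64.5% of 533 genes were higher in SU-DHL6 and 19.1% in OCI-LY3, with a median of -0.73. The 86 genes from HLA-F to HLA-DPB1 had a median of -1.38, and the 447 others on the chromosome -0.59. Chromosomes 7, 10 and 8 also lay toward SU-DHL6, with medians of -0.54, -0.37 and -0.35. Chromosomes 22, 4 and 3 lay toward OCI-LY3, with medians of 0.53, 0.50 and 0.31 and 55.2%, 55.4% and 48.1% of genes higher in that line. Treated libraries, which are other samples of the same lines, gave medians of -0.78 for chromosome 6, -0.55 for 7, -0.35 for 10 and -0.30 for 8. For chromosomes 22, 4 and 3 they gave 0.97, 0.33 and 0.30. Not every chromosome kept its sign. The median of chromosome 13 was 0.18 in untreated and -0.22 in treated libraries, and those of chromosomes 5, 11, 16 and X also changed sign. Copy number was not measured.

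**Figure D4:**
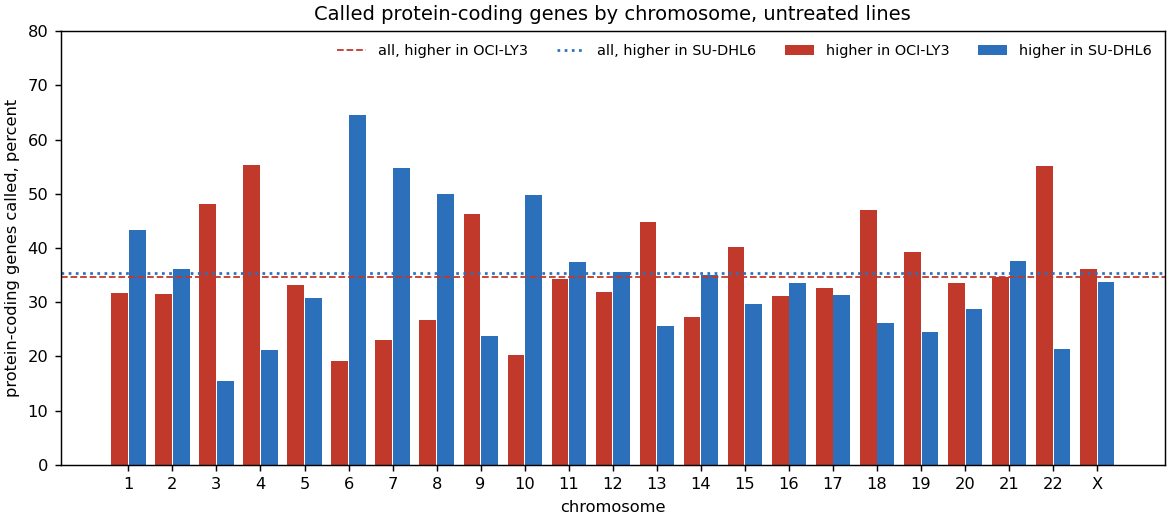
Percent of protein-coding genes with a mean of at least 5 CPM that were higher in OCI-LY3 (red bars) or in SU-DHL6 (blue bars) on each chromosome; lines mark the shares over all 10008 genes, 34.6% and 35.3%. Chromosome 6 reached 64.5% toward SU-DHL6, and chromosomes 4 and 22 reached 55.4% and 55.2% toward OCI-LY3.

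The selinexor-treated libraries give a second set of samples of each line. There 11855 genes (72.0%) were called between the lines. Of the 11089 genes called between untreated lines, 9503 (85.7%) had the same sign in the treated lines, 8166 (73.6%) had the same sign and were called, and 769 (6.93%) were called in the opposite direction. Of the 70 genes that are classifier genes or among the largest differences, 70 kept their sign and 69 were called. They were chosen for large untreated differences or with earlier results known, so this count describes them and is not a separate test. For IRF4 the difference was 2.24 ± 0.08 in treated cells and for BCL6 it stayed negative, while for BMF it was -0.03 ± 0.09. The test of whether the line difference itself differed between treated and untreated libraries called 36.9% of all tested genes. Of 38 classifier or largest-difference genes with over 3 counts in all 4 groups it called 22, of which 9 differed more between treated lines and 13 less.

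**Figure D5:**
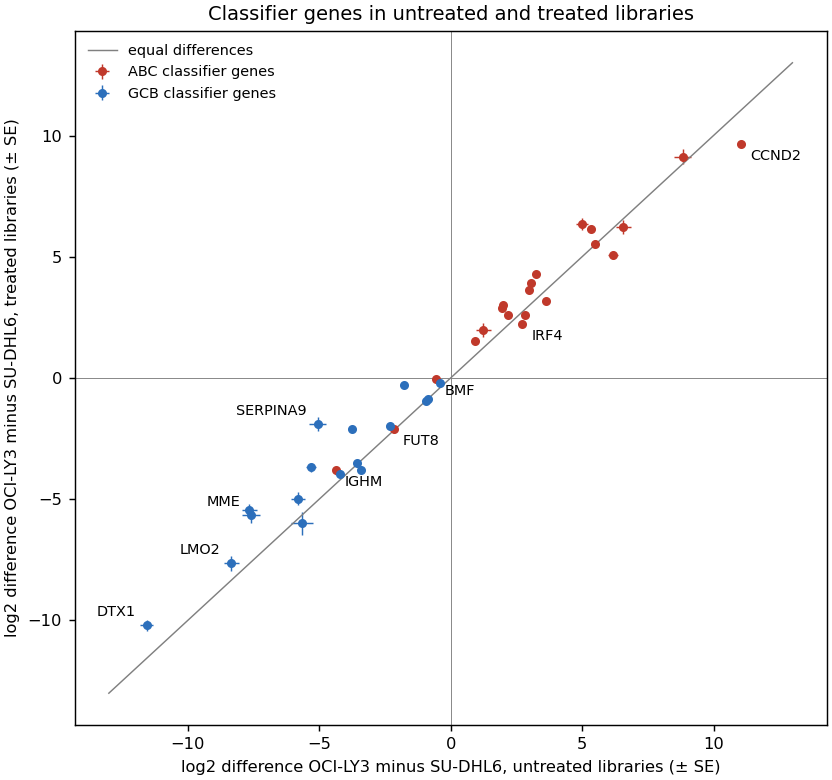
Log2 difference between the lines in untreated (horizontal) and treated libraries (vertical) for ABC (red) and GCB (blue) classifier genes with over 3 counts in both untreated groups; bars are standard errors and the diagonal marks equal differences. The genes keep their sign, and SERPINA9 and MME lie nearer to 0 in treated libraries.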

How the data were processed

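RNA-seq libraries were made from 1.3 µg of total RNA with a SMARTer mRNA kit, per the labels' protocols. The authors deposited 1 table with a read count per gene and library, and FPKM values beside it, per the file headers. Neither the aligner nor the counter is named, and whether strand was used was not given in the sources used here. A mouse genome build stands in the submitters' processing notes, whereas the table holds human gene identifiers, of which 97.5% have the coordinates of GENCODE release 29 (GRCh38). In the deposited counts 297 genes were at exactly 1 in all 6 untreated libraries.

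The main test was edgeR 4.0.16 under R 4.3.3 (filterByExpr, TMM, robust quasi-likelihood fit over all 12 libraries in 4 groups, which share 1 estimate of the spread) and Benjamini-Hochberg adjustment over 16474 genes at 0.05. The procedure was tested on simulated data. Each SE is the size of the log2 difference divided by the square root of the test's F statistic. It thus rests on the fit over all 12 libraries and not on the replicates of the untreated lines alone. CPM uses TMM-scaled library sizes and FPKM was used for levels between genes. A fold against a group without counts is a bound at 3 counts over the group, 0.0711 CPM in OCI-LY3 and 0.0671 CPM in SU-DHL6; groups with 1 to 3 counts have a ratio with an exact interval. Intervals cover counting error only.

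Members, gene lists and tests were chosen with earlier results of these data known. Named genes are the 4 markers, the 15 largest differences per direction and up to 4 called members per list and direction with the smallest adjusted p; other members named were chosen after their values were seen. Over 10% of exonic bases lie in exons of another gene for CCND2, MEF2B, CIITA, CCL3, IGLL5 and ADIRF, and also for BCL2L1, BCL2L11, CCND1, CD27, CD37, CD72, CD79B, CFLAR, FUT8, GAPDH, HLA-B, IL16, IL6, PLK1, REL, TNFRSF13B, TNFRSF14 and TRIM22, and their counts are uncertain to that extent. Alternatives were other scalings, filters and tools (DESeq2 1.42.0, limma 3.58.1), the untreated libraries alone, a replicate block, and leaving out each library. Y-linked genes and XIST were left out, and some list members are not reported here.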

Additional observations from a re-analysis of the deposited data

Results flagged for a closer look

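For 22 of the 38 classifier or largest-difference genes with counts in all groups, the line difference itself differed between treated and untreated libraries (edgeR quasi-likelihood interaction test, adjusted p under 0.05, against 36.9% of all tested genes). The values are the log2 line difference in treated libraries minus that in untreated libraries. Among genes higher in OCI-LY3 the difference was larger in treated libraries by 1.36 for CFLAR, 1.07 for IL16, 1.00 for PTPN1, 0.94 for RAB29, 0.87 for TNFRSF13B, 0.83 for CYB5R2, 0.64 for FOXP1, 0.60 for PIM1 and 0.42 for CCDC50. It was smaller for CCND2 (-1.39), LIMD1 (-1.09), IRF4 (-0.48) and BATF (-0.47). For all the called genes that were higher in SU-DHL6 a positive value means a smaller difference. These were SERPINA9 (3.16), VPREB3 (2.23), MME (1.91), LRMP (1.65), GCSAM (1.61), ITPKB (1.5), DTX1 (1.36), IGHM (0.58) and BMF (0.52). The treated libraries differ from the untreated ones in selinexor, and dose and time are not tied to libraries. These values also depend on the scaling, which moves all of them together. TMM factors were 1.17 to 1.23 in treated SU-DHL6 and 0.86 to 0.89 in treated OCI-LY3. In untreated libraries they were 0.97 to 1.04 and 0.94 to 0.96. The values of single genes were not computed under other scalings, so the small ones are uncertain.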

How the results depend on the processing

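Leaving out each library in turn gave 10455 to 10952 called genes, 5252 to 5581 higher in OCI-LY3 and 5157 to 5371 higher in SU-DHL6. A test against a log2 difference of 1 in place of 0 gave 5155 calls, 2816 higher in OCI-LY3 and 2339 in SU-DHL6. Every other alternative run gave a count within 1.5 times of the main one, from 8510 (a filter of 5 CPM in 3 libraries, with 12001 genes tested) to 11758 (no filter, 33388 genes). Offsets for GC and length (11502 calls) and leaving out genes that share exons (8710 of 12484) were chosen after seeing the data. No gene of those examined changed sign under a called value. The untreated libraries alone gave 10196 calls, and 10148 with the replicate number as a block; the block took the NF-kB subunits higher in SU-DHL6 from 5 to 3 and ended the calls of RELB (adjusted p = 0.076), BCL10 (0.081) and MYC (0.068), while CD74 (0.035) and B2M (0.042) passed. Same-numbered libraries of the lines correlated in their deviations at 0.0747, 0.0082 and 0.0446, and differently numbered ones at -0.0790 to 0.0508. These values are too weak to decide whether the numbers mark pairs. The main test did not take them as pairs. Depth limits genes near the floor of 3 counts, and 1553 genes varied over 2-fold between replicates.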
